A study of Mus musculus with 6 samples.

Results

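Receptors that steer blood cells into, through and out of the bone marrow were examined in MHCII-hi and MHCII-lo hematopoietic stem cells (HSCs). The set held 9 receptors, matched by gene symbol among the 30803 rows of each table: the chemokine receptors Cxcr4, Cxcr5, Ccr7, Ccr9, Ccr2, Cxcr2 and Cx3cr1, and the sphingosine 1-phosphate receptors S1pr1 and S1pr4. Cells labelled as HSCs, the cells that renew the blood, had been sorted from the bone marrow of wild-type (WT) mice at 5 months of age and split by surface MHC class II, a peptide-presenting molecule best known from B cells and dendritic cells. There were 3 MHCII-hi and 3 MHCII-lo libraries, whose titles also carry Ctrl, with no treatment named, and both fractions share the genotype, age and tissue. The labels do not say whether the libraries came from separate animals, so p-values measure library-to-library spread alone, possibly technical. The sources used here give no strain, sex or sorting gate.

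Chemokine receptors are G protein-coupled receptors that make a cell move up a gradient of a small secreted protein. In the marrow, stromal cells make CXCL12, which holds stem cells, B cell precursors and neutrophils in place through CXCR4. Blood and lymph are rich in sphingosine 1-phosphate (S1P), and cells that carry S1P receptors follow it out of tissues. The other chemokine receptors are used mainly by mature cells: CCR7 and CXCR5 guide lymphocytes and dendritic cells within lymphoid organs, CCR9 guides progenitors to the thymus and lymphocytes to the gut, CCR2 and CXCR2 bring monocytes and neutrophils out of the marrow, and CX3CR1 marks monocytes, macrophages and some lymphocytes.

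All 9 are annotated as protein-coding in GENCODE M21 on GRCm38, the build named in the submitters' processing notes. Cxcr2 (chromosome 1, 74153989 to 74161246, plus strand) and Cxcr4 (chromosome 1, 128588199 to 128592293, minus strand) share a chromosome. Ccr9 (chromosome 9, 123678439 to 123784330, plus strand) and Ccr2 (chromosome 9, 124101950 to 124113557, plus strand) lie in the chemokine receptor cluster of chromosome 9. Cx3cr1 (chromosome 9, 119901616 to 120069879, minus strand) and Cxcr5 (chromosome 9, 44511787 to 44561877, minus strand) are elsewhere on that chromosome. Ccr7 is on chromosome 11 (99144196 to 99155077, minus strand), S1pr1 on chromosome 3 (115710433 to 115715072, minus strand) and S1pr4 on chromosome 10 (81497747 to 81500132, minus strand). Other annotated genes overlap the span of Cx3cr1 (9 genes, 3 of them on its strand), Ccr9 (6 genes, 2 on its strand) and Cxcr5 (1 gene, on the opposite strand), and the sources used here do not say how reads there were assigned.

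RefSeq promoters of build GRCm38.p6 were at hand for 6 of the 9 receptors. Their transcription starts are those of RefSeq and can differ from the ends of the GENCODE spans above. The Ccr9 and Cx3cr1 windows lie inside those spans, as does most of the Ccr2 window, and the Cxcr2 window ends just inside its span. The 250 bases before the transcription start are shown for Cxcr4, the most abundant receptor and one that was higher in MHCII-hi, for Cxcr2, which was higher in MHCII-hi and is the most abundant receptor after Cxcr4 there, and for Ccr2, the receptor that was lower. Capitals mark matches on either strand. The GC box was searched as CCGCCC. For the CACCC box the letters were its name. The TATA box was searched as TATAAA. An ETS purine core was searched as GAGGAA. For the transcription factor NRF1 the core searched was CGCATGCG, which is its own reverse complement.
Cxcr4 (chr1:128592300-128592549, minus strand): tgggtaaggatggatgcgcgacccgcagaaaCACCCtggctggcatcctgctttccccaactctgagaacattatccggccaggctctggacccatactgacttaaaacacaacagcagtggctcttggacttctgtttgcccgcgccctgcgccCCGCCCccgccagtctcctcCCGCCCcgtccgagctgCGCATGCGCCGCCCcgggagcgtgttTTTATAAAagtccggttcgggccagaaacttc
Cxcr2 (chr1:74153744-74153993, plus strand): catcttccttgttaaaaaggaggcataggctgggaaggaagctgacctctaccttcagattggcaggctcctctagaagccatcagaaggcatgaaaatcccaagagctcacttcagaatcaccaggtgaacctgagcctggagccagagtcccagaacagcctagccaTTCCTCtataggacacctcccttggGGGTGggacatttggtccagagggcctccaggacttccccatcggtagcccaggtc
Ccr2 (chr9:124101933-124102182, plus strand): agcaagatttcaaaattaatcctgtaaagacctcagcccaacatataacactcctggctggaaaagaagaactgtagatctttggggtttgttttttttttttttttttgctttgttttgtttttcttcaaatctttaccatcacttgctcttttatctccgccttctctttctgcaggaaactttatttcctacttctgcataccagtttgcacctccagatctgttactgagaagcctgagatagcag
The Cxcr4 window was the only CpG-rich one of the 6, with 19 CpG dinucleotides and 61.2% G and C, against a median of 6 CpG and 52.4% over the 32851 windows in the table. It held 3 GC boxes, the last of which directly follows an NRF1 core at bases -58 to -51 counted from the start, a CACCC box, and a TATA box at bases -30 to -25 that overlaps a match on the other strand. A GC box occurred in 32.7% of all windows, a TATA box in 12.4% and the NRF1 core in 1.55%. Cxcr2 held a CACCC box (52.0% of all windows) and an ETS core (23.3%), and Ccr2, with 1 CpG and 37.2% G and C, held no match to the 5 motifs. The windows of Ccr9, Cx3cr1 and S1pr4 each held a CACCC box and 0 to 4 CpG. These matches describe letters in a window and not binding.

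The label of the cells was checked against stem cell markers. Levels are in FPKM, which counts sequenced fragments relative to transcript length and to the size of the library. Kit, at 10.9 ± 0.208 FPKM in MHCII-hi and 10.9 ± 0.0306 FPKM in MHCII-lo, and Cd34, at 15.7 ± 0.414 FPKM in MHCII-hi and 14.8 ± 0.281 FPKM in MHCII-lo, were present, while Procr, Slamf1, Mecom and Fgd5 averaged less than 1 FPKM over the 6 libraries and none of the 12 stem cell markers was listed at 0 throughout. The 8 neutrophil markers, in contrast, summed to at least 13588 FPKM in every library, so transcripts of mature cells are present in both fractions. The FPKM of a library summed to 333347 to 333530 in MHCII-hi and 305934 to 306945 in MHCII-lo, and the correlation of libraries over tested genes was 0.990 to 0.994 within a group and 0.905 to 0.909 across groups (Pearson's r across genes, which are not independent replicates).

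Among the 8 tested receptors, Cxcr4, Ccr7, Ccr9, Cxcr2 and S1pr1 were higher in MHCII-hi and Ccr2 was lower. Cx3cr1 and S1pr4 did not pass the test. Cxcr5, which lay below the expression minimum, had the largest ratio of means of the 9, at 12.8, and passed as higher only where no minimum was set. The test was limma on log2(FPKM + 1) across the 12295 genes that averaged 1 FPKM or more over the 6 libraries, with Benjamini-Hochberg adjustment and a threshold of 0.05. The fractions differed in much of the transcriptome, and limma called 27.2% of all tested genes higher and 40.5% lower, so a call by itself says little, and sizes are given for each receptor. Calls in either direction took 67.8% of all tested genes, and 6 of the 8 tested receptors. The libraries of the 2 fractions did not overlap for 6 of the 8 tested receptors, 5 higher and 1 lower, against 72.8% of all tested genes, 29.6% higher and 43.3% lower. Both receptor counts include Ccr9, which met the expression minimum only through its MHCII-hi level. A called rise of at least 1 on the log2 scale was seen in 3.69% of all tested genes, and among the receptors in Ccr7, Cxcr2 and S1pr1. A called fall of that size was seen in 1.46% of all tested genes and in no receptor. The same 3 receptors passed limma's treat test for a rise beyond 2-fold, which 2.55% of all tested genes passed. The median log2 change over all tested genes was -0.08.

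**Figure D1:**
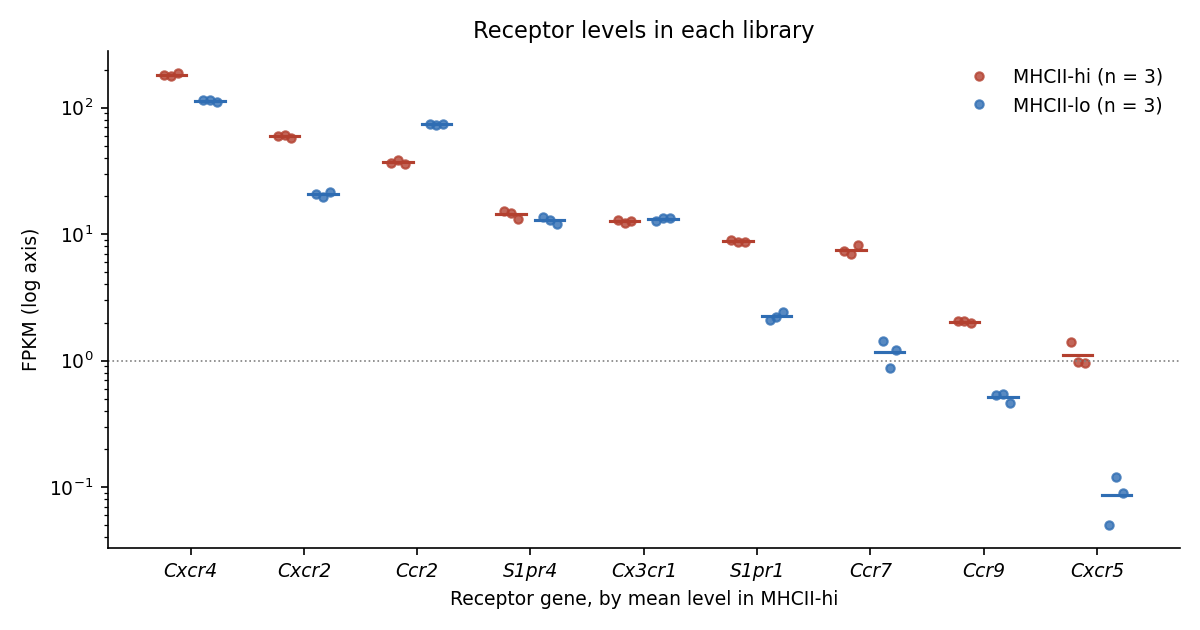
FPKM of each receptor (log axis) in the 3 MHCII-hi libraries, left of each pair, and the 3 MHCII-lo libraries, right; points are libraries, bars are means and the dotted line is 1 FPKM. Ccr2 is the receptor whose MHCII-hi libraries (36.14 to 38.3 FPKM) all lie below its MHCII-lo libraries (73.37 to 74.78 FPKM).

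**Figure D2:**
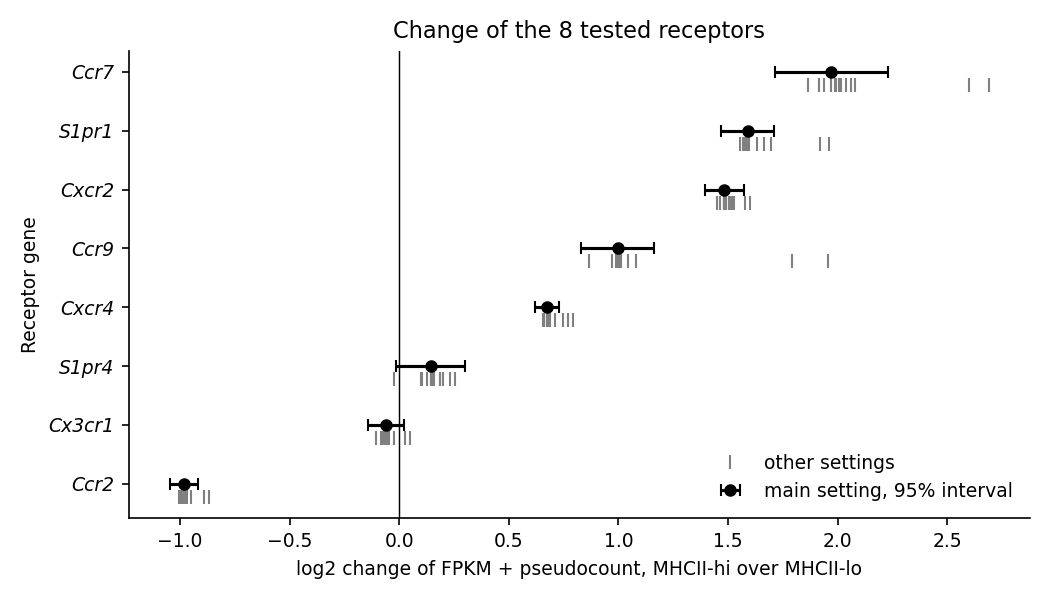
Log2 change of the 8 tested receptors, MHCII-hi over MHCII-lo; black points with bars are limma estimates with 95% intervals, and grey ticks below them are the same change under other settings. Ccr7, S1pr1 and Cxcr2 lie above 1 under all settings drawn, while the ticks of S1pr4 and Cx3cr1 fall on both sides of 0.

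Cxcr4, the CXCL12 receptor that keeps cells in the marrow, was the most abundant of the 9 in both fractions. It measured 180.84, 178.45 and 186.75 FPKM in MHCII-hi replicates 1 to 3, against 114.49, 115.29 and 111.55 FPKM in MHCII-lo replicates 1 to 3. Every MHCII-hi library was above every MHCII-lo library. The means were 182 ± 4.27 and 114 ± 1.97 FPKM (SD, n = 3 each), a ratio of 1.60, with a log2 change of 0.67 ± 0.02 (SE; limma adjusted p = 9.26e-07). That level was above 98.3% of all tested genes in MHCII-hi and above 96.98% in MHCII-lo. The bulk libraries cannot tell a larger share of cells of some type from more RNA per cell, here or for any other receptor.

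S1pr1, the receptor by which lymphocytes and progenitors follow S1P into blood and lymph, was higher by a larger factor, at a lower level. Its values were 8.91, 8.71 and 8.66 FPKM in MHCII-hi replicates 1 to 3 and 2.09, 2.22 and 2.43 FPKM in MHCII-lo replicates 1 to 3. The groups were far apart, with little spread within either. The ratio of means was 3.90 (8.76 ± 0.132 against 2.25 ± 0.172 FPKM, SD, n = 3 each), and the log2 change was 1.59 ± 0.05 (SE; limma adjusted p = 6.62e-07).

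S1pr4, an S1P receptor found mainly on blood cells, did not follow S1pr1. It stood at 15.14, 14.66 and 13.12 FPKM in MHCII-hi replicates 1 to 3, against 13.65, 12.93 and 11.96 FPKM in MHCII-lo replicates 1 to 3, and the groups overlapped. The log2 change was 0.14, with a 95% interval of -0.01 to 0.30 (limma adjusted p = 0.0910). This result depended on the processing. It passed as higher with median-of-ratios scaling (log2 change 0.23, limma adjusted p = 0.0171), with quantile normalization (0.19, adjusted p = 0.0365), with immunoglobulin segments removed (0.26, adjusted p = 0.0115) and without MHCII-hi replicate 3 (0.20, adjusted p = 0.0255). After removal of length and GC trends it stood at -0.022 (limma adjusted p = 0.784).

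Ratios within a library are not moved by library scaling, and FPKM, being per length, allows them between genes. Cxcr4 was 20.3, 20.5 and 21.6 times S1pr1 in MHCII-hi replicates 1 to 3, and 54.8, 51.9 and 45.9 times S1pr1 in MHCII-lo replicates 1 to 3. Thus transcripts of the retention receptor exceeded those of the egress receptor in every library, by a smaller factor in MHCII-hi. The mean log2 ratio was 4.38 ± 0.05 in MHCII-hi and 5.66 ± 0.13 in MHCII-lo (SD, n = 3 each), a difference of -1.29 (exact permutation test, two-sided p = 0.1, the smallest that 3 against 3 allows). S1pr1 was 0.589, 0.594 and 0.660 times S1pr4 in MHCII-hi and 0.153, 0.172 and 0.203 times S1pr4 in MHCII-lo, a difference in log2 ratio of 1.81 (exact permutation test, two-sided p = 0.1). With 1 FPKM added to both genes the differences were -0.92 and 1.45.

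**Figure D3:**
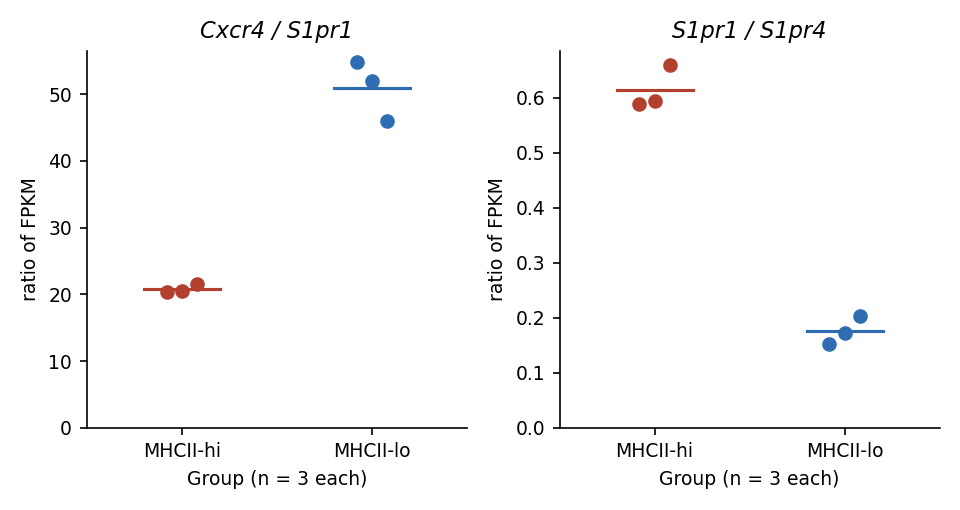
Ratio of FPKM within each library, for Cxcr4 over S1pr1 and for S1pr1 over S1pr4; points are libraries, bars are group means, MHCII-hi left and MHCII-lo right, and axes start at 0. Cxcr4 over S1pr1 averages 20.8 in MHCII-hi and 50.9 in MHCII-lo, and S1pr1 over S1pr4 averages 0.614 in MHCII-hi and 0.176 in MHCII-lo.

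The 3 receptors of lymphoid traffic were low in MHCII-lo, and their MHCII-hi libraries all lay above their MHCII-lo libraries. Ccr7, which draws naive lymphocytes and mature dendritic cells to lymph nodes, measured 7.31, 6.99 and 8.20 FPKM in MHCII-hi replicates 1 to 3, against 1.44, 0.87 and 1.22 FPKM in MHCII-lo replicates 1 to 3. The groups did not overlap, and Ccr7 had the largest log2 change of the tested receptors, 1.97 ± 0.11 (SE; limma adjusted p = 7.23e-06), a ratio of means of 6.37.

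Ccr9 reached 2.06, 2.04 and 1.98 FPKM in MHCII-hi replicates 1 to 3 and 0.54, 0.55 and 0.46 FPKM in MHCII-lo replicates 1 to 3. It was near the bottom of the tested range in MHCII-lo, above 0.699% of tested genes, and passed the expression minimum only through its MHCII-hi level. Its log2 change was 0.997 ± 0.07 (SE; limma adjusted p = 2.30e-05). For so low a gene the pseudocount of 1 FPKM compresses the change, which was 1.79 with a pseudocount of 0.1 and 1.96 with 0.01.

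Cxcr5, which leads B cells into follicles, averaged 0.598 FPKM over the 6 libraries and was not tested. The 3 MHCII-hi libraries held 1.40, 0.98 and 0.95 FPKM, against 0.05, 0.12 and 0.09 FPKM in the 3 MHCII-lo libraries. No MHCII-lo library came near the lowest MHCII-hi library (exact permutation test over the 6 libraries, two-sided p = 0.1, the smallest possible). In limma without the expression minimum, where 14.1% of 27715 genes were called higher and 31.3% in either direction, Cxcr5 had a log2 change of 0.95 (adjusted p = 0.000582). The depth of these libraries is unknown, so no counting interval can be set on levels this low.

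B cell markers moved with these receptors. All 8 of the B cell markers listed, Cd79a, Ms4a1 and Pax5 among them, were higher in MHCII-hi, with summed levels of 178 to 183 FPKM in MHCII-hi libraries and 23.98 to 26.6 FPKM in MHCII-lo libraries. Of 7 T cell markers 6 were higher and Cd3d was lower, with sums of 63.4 to 68.6 FPKM in MHCII-hi and 35.0 to 39.2 FPKM in MHCII-lo. All 5 tested dendritic cell markers were higher, and Zbtb46, below the minimum, averaged 0.737 FPKM in MHCII-hi and 0.830 FPKM in MHCII-lo. The 6 together summed to 73.5 to 76.98 FPKM in MHCII-hi and 35.1 to 36.9 FPKM in MHCII-lo. All 6 plasma cell markers were higher (438 to 445 FPKM in MHCII-hi, 74.9 to 78.1 FPKM in MHCII-lo). None of these markers was listed at 0 in all 6 libraries. Of them, Ms4a1, Ebf1, Cd4, Tnfrsf17 and Prdm1 averaged less than 1 FPKM in MHCII-lo. They met the expression minimum only through MHCII-hi, so the filter fixed their direction. Of all tested genes, 27.2% were called higher and 40.5% lower. The part of these cell types in the levels of Ccr7, Cxcr5, Ccr9 and S1pr1 was not tested.

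The 3 receptors of myeloid traffic went in different directions. Cxcr2, the neutrophil receptor for CXCL1 and CXCL2, stood at 59.64, 61.29 and 57.94 FPKM in MHCII-hi replicates 1 to 3, against 20.89, 19.71 and 21.48 FPKM in MHCII-lo replicates 1 to 3. The groups were well apart, with a ratio of means of 2.88 and a log2 change of 1.48 ± 0.04 (SE; limma adjusted p = 2.67e-07). Its close relative Cxcr1 was scarcely detected, at 0.173 ± 0.0404 FPKM in MHCII-hi and 0.217 ± 0.121 FPKM in MHCII-lo (SD, n = 3 each). Of 8 neutrophil markers 7 were higher (27.2% over all tested genes) and S100a8 did not pass. Ratios of means of the 7 ran from 1.14 for Camp to 2.70 for Ngp, against 2.88 for Cxcr2. The 8 markers summed to 20374 to 20647 FPKM in MHCII-hi and 13588 to 13608 FPKM in MHCII-lo. Their part in the rise of Cxcr2 was not tested.

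Ccr2, the CCL2 receptor by which monocytes leave the marrow, was the receptor that fell. It measured 36.64, 38.30 and 36.14 FPKM in MHCII-hi replicates 1 to 3 and 74.78, 73.37 and 74.20 FPKM in MHCII-lo replicates 1 to 3. Every MHCII-hi library was below every MHCII-lo library. The mean was 37.0 ± 1.13 FPKM in MHCII-hi and 74.1 ± 0.709 FPKM in MHCII-lo (SD, n = 3 each), and the log2 change was -0.98 ± 0.03 (SE; limma adjusted p = 3.39e-07). Of 9 monocyte and macrophage markers 6 were lower (Ly6c2, F13a1, Csf1r, Ms4a3, Fcgr1 and Adgre1) and C1qa, C1qb and Cd68 were higher. Over all tested genes, 40.5% were called lower and 27.2% higher. The 9 markers summed to 673 to 678 FPKM in MHCII-hi and 919 to 945 FPKM in MHCII-lo. Their part in the fall of Ccr2 was not tested. C1qa and C1qb averaged less than 1 FPKM in MHCII-lo and met the expression minimum only through MHCII-hi.

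Cx3cr1, the receptor for the membrane-bound chemokine fractalkine, was level. It stood at 12.84, 12.29 and 12.65 FPKM in MHCII-hi replicates 1 to 3, against 12.75, 13.39 and 13.43 FPKM in MHCII-lo replicates 1 to 3. The groups overlapped. The log2 change was -0.06, with a 95% interval of -0.14 to 0.02 (limma adjusted p = 0.148), and its sign turned to 0.027 with median-of-ratios scaling and 0.049 with immunoglobulin segments removed. After removal of length and GC trends it passed as lower, at -0.11 (limma adjusted p = 0.0323).

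Together the 9 receptors summed to 325 ± 1.35 FPKM in MHCII-hi and 239 ± 1.94 FPKM in MHCII-lo (SD, n = 3 each), and their make-up differed. Cxcr4 gave 56.0 ± 1.08% of that sum in MHCII-hi and 47.7 ± 0.630% in MHCII-lo. Cxcr2 gave 18.3 ± 0.591% in MHCII-hi and 8.67 ± 0.402% in MHCII-lo. Ccr2 gave 11.4 ± 0.392% in MHCII-hi and 31.1 ± 0.281% in MHCII-lo. The order of mean levels in MHCII-hi was Cxcr4, Cxcr2, Ccr2, S1pr4, Cx3cr1, S1pr1, Ccr7, Ccr9 and Cxcr5, and no neighbours in it overlapped in their library ranges. In MHCII-lo, Ccr2 stood ahead of Cxcr2, and Cx3cr1 and S1pr4, which overlapped, changed places.

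**Figure D4:**
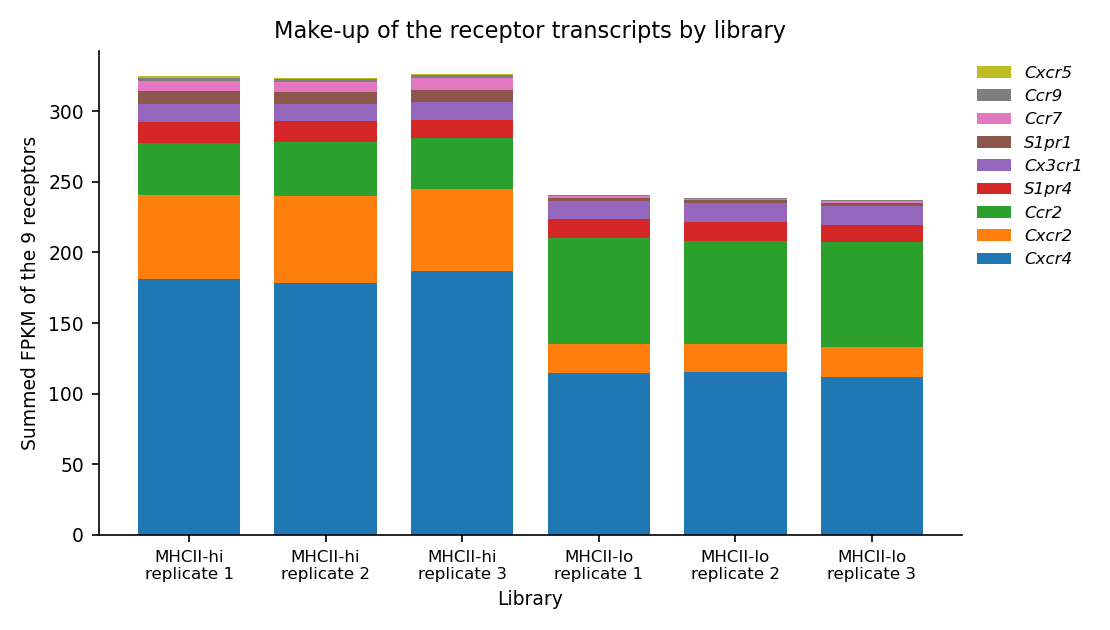
Summed FPKM of the 9 receptors in each library, stacked by receptor, with the 3 MHCII-hi libraries left and the 3 MHCII-lo libraries right. The Ccr2 layer shrinks to 11.4% of the sum in MHCII-hi, against 31.1% in MHCII-lo, while the Cxcr2 layer takes 18.3% in MHCII-hi and 8.67% in MHCII-lo.

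Other receptor genes in the chromosome 9 cluster did not move as Ccr2 did. There, Ccr9, Ccr1 and Ccr3 were higher, Cxcr6 did not pass and Xcr1 was below the minimum. Ccr1, a receptor for inflammatory chemokines, stood at 40.6 ± 0.50 FPKM in MHCII-hi and 23.6 ± 0.441 FPKM in MHCII-lo (log2 change 0.76, limma adjusted p = 7.44e-07). Ccr3, best known from eosinophils, stood at 3.60 ± 0.134 FPKM in MHCII-hi and 1.80 ± 0.178 FPKM in MHCII-lo (log2 change 0.72, limma adjusted p = 7.74e-05).

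Among 17 other chemokine receptors, 6 reached the minimum. Of these 5 were higher (27.2% over all tested genes), Ccr1, Ccr3, Cxcr3 and Ccrl2 among them. None was lower (40.5% over all tested genes), and the median log2 change of the list was 0.56. The count of higher calls was 8 with no filter, 2 with a mean of at least 5 FPKM and 0 under treat against 2-fold, and 4 without MHCII-hi replicate 1 or 3 or MHCII-lo replicate 1 or 2. Cxcr3, a receptor of effector T and NK cells, was at 6.61 ± 0.349 FPKM in MHCII-hi and 3.14 ± 0.408 FPKM in MHCII-lo (log2 change 0.88). Ackr3, the scavenging receptor for CXCL12, was near absent at 0.110 ± 0.0361 FPKM in MHCII-hi and 0.0233 ± 0.0404 FPKM in MHCII-lo (SD, n = 3 each).

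Most ligand genes that could be matched lay below the expression minimum. Of 15 ligand genes, 13 were matched and 4 reached the minimum. Ccl19 and Ccl21a were not found by symbol and so were not assessed. Cxcl12 itself stood at 1.56 ± 0.186 FPKM in MHCII-hi and 1.42 ± 0.0723 FPKM in MHCII-lo (limma adjusted p = 0.397). Cxcl2, a ligand of Cxcr2, was higher at 87.7 ± 3.44 FPKM in MHCII-hi against 45.96 ± 1.70 FPKM in MHCII-lo (limma adjusted p = 2.15e-06). Ccl2, the ligand of Ccr2, fell with its receptor, to 8.90 ± 0.146 FPKM in MHCII-hi against 14.3 ± 0.199 FPKM in MHCII-lo (limma adjusted p = 3.81e-06). Ppbp did not pass, and Cxcl13 and Cxcl5 were listed at 0 in all 6 libraries.

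Genes of the S1P pathway were split. Of 13 tested genes, 2 were higher and 6 were lower (27.2% and 40.5% over all tested genes), and 5 did not pass. The list had a median log2 change of -0.35. With median-of-ratios scaling, or with immunoglobulin segments removed, 5 were higher and 6 lower. With a mean of at least 5 FPKM 2 were higher and 3 lower, with no filter 4 were higher, and none passed treat in either direction. Spns2, which exports S1P, was higher at 8.01 ± 0.127 FPKM in MHCII-hi and 3.48 ± 0.215 FPKM in MHCII-lo (log2 change 1.01, limma adjusted p = 3.36e-06). The kinase Sphk1, which makes S1P, fell to 1.60 ± 0.0777 FPKM in MHCII-hi, against 3.84 ± 0.0896 FPKM in MHCII-lo (log2 change -0.90, limma adjusted p = 9.46e-06). The lyase Sgpl1 and the phosphatase Sgpp1, which remove it, were lower, as were Plpp2, Asah1 and S1pr3, while the ceramide kinase gene Cerk was higher. S1pr3 averaged 0.79 FPKM in MHCII-hi and 1.44 FPKM in MHCII-lo. It met the expression minimum only through MHCII-lo, so the filter fixed its direction. S1pr2, a receptor that opposes migration, was at 1.25 ± 0.287 FPKM in MHCII-hi and 1.69 ± 0.127 FPKM in MHCII-lo and did not pass (limma adjusted p = 0.0603), though it passed as lower without MHCII-hi replicate 1 (adjusted p = 0.0107), with quantile normalization (adjusted p = 0.0263) and without the mean-variance trend (adjusted p = 0.0489).

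All 8 genes listed as regulators of S1pr1 were higher in MHCII-hi (27.2% over all tested genes), with a median log2 change of 0.36 in limma. The count was 5 with length and GC trends removed, 1 under treat against 2-fold, and 7 without MHCII-hi replicate 1 or MHCII-lo replicate 1. The smallest log2 changes of the 8 were those of Wwp2 (0.12), Klf4 (0.13) and Klf3 (0.16). Klf2, a transcription factor that activates S1pr1 in T cells, stood at 116 ± 1.85 FPKM in MHCII-hi and 68.2 ± 1.04 FPKM in MHCII-lo (log2 change 0.76, limma adjusted p = 3.40e-07). Foxo1, which acts upstream of Klf2 in T cells, was at 7.05 ± 0.161 FPKM in MHCII-hi and 2.45 ± 0.133 FPKM in MHCII-lo (log2 change 1.22, limma adjusted p = 1.44e-06). Cd69, whose protein binds S1PR1 and takes it off the surface, was also higher, at 31.9 ± 0.125 FPKM in MHCII-hi and 18.6 ± 0.918 FPKM in MHCII-lo (log2 change 0.75, limma adjusted p = 4.97e-06). Receptor protein at the surface was not measured.

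Genes that turn off receptor signals moved both ways, with 9 of 17 tested higher and 5 lower (27.2% and 40.5% over all tested genes). The list had a median log2 change of 0.16. Those lower numbered 3 with a mean of at least 5 FPKM or with length and GC trends removed. Rgs1, which shortens chemokine receptor signalling, was at 48.1 ± 0.465 FPKM in MHCII-hi and 20.9 ± 0.146 FPKM in MHCII-lo (log2 change 1.16, limma adjusted p = 7.36e-08). The arrestin gene Arrb2 was at 86.4 ± 0.372 FPKM in MHCII-hi and 43.4 ± 1.32 FPKM in MHCII-lo (log2 change 0.98), and Rgs16 was also higher (0.58). Usp14, a deubiquitinase described for CXCR4, was lower, with a log2 change of -0.82. The receptor kinase gene Grk2 was higher (0.32), while Grk6 averaged 37.7 FPKM in both fractions (limma adjusted p = 0.960).

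Downstream genes were split, with 13 of 26 G protein and motility genes higher and 9 lower (27.2% and 40.5% over all tested genes). Their median log2 change was 0.07. Gnai2, the inhibitory G protein subunit through which chemokine receptors mainly signal, was at 215 ± 0.747 FPKM in MHCII-hi and 187 ± 0.845 FPKM in MHCII-lo (log2 change 0.20). The largest changes were those of Rac2 (0.69), Ptk2b (0.61) and Pik3r5 (0.51), all higher, and of the actin-binding gene Coro1a, which was lower (-0.58). Among other migration receptors 12 of 16 were higher and Lpar6 was lower (27.2% and 40.5% over all tested genes), with a median log2 change of 0.56. Those most changed were the formyl peptide receptor Fpr1 (1.48), the complement receptor C5ar1 (1.25), P2ry10 (0.95) and the G-CSF receptor Csf3r (0.91).

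Of 14 tested homing adhesion genes 6 were higher and 6 lower (27.2% and 40.5% over all tested genes), with a median log2 change of -0.04. The integrin chain Itgb2 was at 0.71, the integrin chains Itgb1 at -0.52 and Itga5 at -0.46, and Pecam1 at 0.45.

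**Figure D5:**
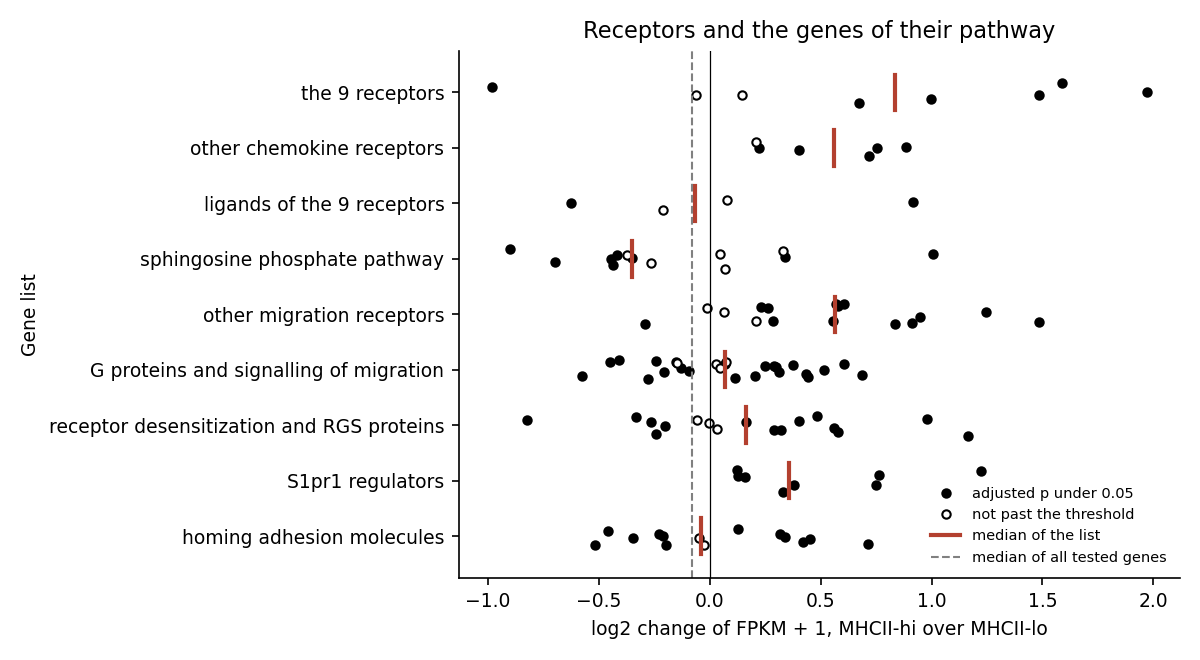
Log2 change of each tested gene in the receptor set and in 8 lists of pathway genes, MHCII-hi over MHCII-lo; filled points passed the limma test, open points did not, red bars are list medians and the dashed line is the median of all tested genes, -0.08. All 8 points of the S1pr1 regulators lie above 0, while points of the sphingosine phosphate pathway lie mostly below it, with a median of -0.35.

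For each tested receptor the genes nearest in profile were sought among 10561 others, by Euclidean distance between log2(FPKM + 1) values centred on the gene's mean over the 6 libraries. With 2 tight groups this distance mostly reflects the size of the group difference. Nearest to Cxcr4 were Syk, Itpr2 and Srrm2 (distances 0.0404 to 0.0471). Nearest to Ccr7 were Cd72, Bach2 and Cd79b (0.232 to 0.339), and nearest to Ccr9 were Retnlg, F5 and Glcci1 (0.0566 to 0.0628). Ccr2 lay closest to Hat1, Gins1 and Rps13 (0.0510 to 0.0681), and Cxcr2 lay close to Cd4 and Osgin1 (0.0926 and 0.109). S1pr1 lay close to Osgin1, as Cxcr2 did, and to Cplx2 (0.128 and 0.152). Cx3cr1 lay close to Paqr4 and Dpp8, and S1pr4 to Kin, Cfb and Gabpb1.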

How the data were processed

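Poly(A) RNA-seq of 3 MHCII-hi and 3 MHCII-lo sorted bone marrow fractions was analysed from 1 table per library, in which the authors deposited a gene symbol and a value with 2 decimals. Per the submitters' processing notes, fastp, HISAT2, StringTie and builds GRCm38 or mm10 were used; versions are not given there. The file headers give no unit, and the deposited values were taken as FPKM, normalized by the authors to library size and transcript length, because they sum to neither counts nor a TPM total. Depth is unknown. FPKM is relative, so a rise of abundant transcripts lowers all others. Of 67 repeated symbols the most abundant row was kept under the symbol (70 rows renamed), and 96.4% of symbols matched 1 GENCODE M21 gene.

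Genes averaging 1 FPKM or more were tested on log2(FPKM + 1) with limma 3.58.1 in R 4.3.3 (two-sided, moderated with an intensity trend, Benjamini-Hochberg adjusted p under 0.05), a fit tested on simulated data. Fold changes on this scale understate those of low genes, and ratios are of mean FPKM. Count tests were not run because values are not counts, and no batch is named in the labels. Alternatives were other pseudocounts, filters, scalings, weights, a replicate block, limma's treat against 2-fold and each library left out. Named genes were all 9 receptors, up to 4 of the largest called changes per list, 9 genes always taken, and the 3 nearest profiles of each receptor, some of which are not reported here. Cxcr1 and the genes that complete a count were named after their values were seen. Receptors and lists were chosen with earlier results of these data known. Tables and figures used Python 3.11.15, pandas 2.3.3 and matplotlib 3.10.9.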

Additional observations from a re-analysis of the deposited data

How the results depend on the processing

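Cxcr2, S1pr1 and Ccr7 kept their direction and their call under every alternative that tested them, and Cxcr4, Ccr9 and Ccr2 under all but limma's treat test against 2-fold. Receptors called higher numbered 3 with a mean of at least 5 FPKM, which leaves Ccr7 and Ccr9 untested, and 3 under treat, against 5 otherwise or 6 where S1pr4 joined (or Cxcr5, with no filter). Receptors called lower numbered 2 with length and GC trends removed and 0 under treat, against 1. Over all genes, 2210 were called higher with a mean of at least 5 FPKM, and treat called 313 higher and 42 lower. Leaving out each library in turn gave 5 to 6 receptors higher and 1 lower, 3040 to 3198 genes higher and 4519 to 4791 lower, and log2 ratio differences of -1.36 to -1.23 for Cxcr4 to S1pr1 and 1.72 to 1.92 for S1pr1 to S1pr4. With 1 FPKM added to both genes these differences moved to -0.916 and 1.45. Changes near 0 turned sign. With median-of-ratios scaling they were 0.0269 for Cx3cr1, 0.00625 for Paqr4 and 0.0312 for Dpp8. With immunoglobulin segments removed they were 0.0488 for Cx3cr1, 0.0222 for Paqr4 and 0.0531 for Dpp8. With length and GC trends removed that of S1pr4 was -0.0223. The median of the ligands turned to 0.145 with a mean of at least 5 FPKM, 0.0139 with immunoglobulin segments removed and 0.00190 with length and GC trends removed, and ran from -0.132 to 0.0257 over left-out libraries. That of the S1P pathway turned to 0.0446 with a mean of at least 5 FPKM. That of the adhesion genes turned to 0.0519 with no filter, 0.0526 with median-of-ratios scaling and 0.0747 with immunoglobulin segments removed, and ran from -0.0662 to 0.0112 over left-out libraries. Under treat, 2 other migration receptors and 1 desensitization gene were called higher, and none of the ligands, G protein and motility genes or adhesion genes was called in either direction. Apart from the changed gene sets of the filters, the cause was not tested.

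The values did not settle whether replicate numbers pair the libraries. Deviations from the group means of same-numbered libraries correlated at 0.0626, 0.0019 and 0.0804 over genes. Those of differently numbered libraries, 1 from each group, correlated at -0.0949 to 0.0251. Not every library correlated best with its own number. With the replicate block, 6 receptors were called higher, S1pr4 joining at a limma adjusted p of 0.0148, and 1 lower, and the ratio differences stayed at -1.29 and 1.81. Unknown depth limits Cxcr5 and Ccr9 most.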
